A study of Mus musculus with 4 samples.

Results

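The Egr, Nab and Nr4a genes encode transcription factors of the early response to a stimulus and the co-repressors that restrain them. The 8 genes described here are Egr1, Egr2, Egr3, Nab1, Nab2, Nr4a1, Nr4a2 and Nr4a3, out of 18193 genes in the array table. They were found as the probe sets, the array's sets of short probes against a transcript, whose platform annotation names 1 gene symbol equal to a listed gene. That gave 19 of 45037 probe sets. The main value of a gene is that of its brightest probe set by mean over all 4 arrays, and the others stand beside it. The family was selected on the measured difference between the groups, since Egr1 and Egr2 had been seen to be higher in the deficient cells. The differences below are therefore a description and no independent evidence, and the p-values printed with them carry that limit.

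RNA came from haematopoietic stem cells (HSC) that had been sorted by flow cytometry with the KLS CD48- CD150+ gate, where KLS stands for Kit-positive, lineage-negative and Sca-1-positive cells. The 2 Rb family deficient pools have the genotype label Rb -/- p130 -/- p107-/-, and the 2 wild type pools have Rb +/+ p130 +/+ p107-/-. Both groups therefore carry p107-/- by label, and both received the same description of recombination set off by tamoxifen in adult mice. Cells were taken 2 weeks later, and each pool held cells of 3 mice. The labels name no promoter for the recombinase, no age and no strain. Nothing states whether pools share mice or a day of preparation, so p-values measure the spread between these pools.

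Values are log2 expression values made by the authors with RMA (robust multi-array average), which brings all arrays to nearly the same distribution. Array medians lay at 6.01 and 5.98 in deficient cells, and at 5.93 and 5.96 in wild type cells. No detection calls were used here, so no value can be called above or at background. The targeted gene Rbl2 (p130) stood at 7.82 and 8.21 in deficient cells against 8.94 and 8.75 in wild type cells, while Rb1 was not lower (9.82 and 9.72 against 9.37 and 9.58). Whether these probe sets lie inside the deleted parts is unknown here, so they do not check the labels. Rbl1, which encodes p107 and is -/- by label in both groups, had 5.35 and 5.42 in deficient cells against 5.92 and 6.77 in wild type cells, a difference of -0.96, or -0.22 averaged over its probe sets. The 3' over 5' log2 difference of Actb, which grows as RNA is degraded, was 3.13 and 2.95 in deficient cells against 2.32 and 2.81 in wild type cells. That of Gapdh overlapped between the groups, with 2.79 and 2.50 in deficient cells against 2.40 and 2.58 in wild type cells. The Y-linked gene Kdm5d was lower in deficient cells (6.12 and 7.86 against 8.26 and 8.37). The part of RNA quality and of the sex of the mice in the results was not tested.

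EGR proteins bind GC-rich DNA through zinc fingers and are made within minutes of growth factor, cytokine or stress signals, mostly through MAP kinases and serum response factor. NAB1 and NAB2 bind EGR proteins and repress their targets, and NAB2 is itself switched on by EGR factors. The NR4A proteins are orphan nuclear receptors that are controlled mainly by how much of them is made. In mouse HSC, loss of Egr1 has been described to release cells from quiescence and the niche, and joint loss of Nr4a1 and Nr4a3 to cause uncontrolled myeloid growth.

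The 8 genes fell into 2 kinds. Egr1, Egr2, Nr4a1 and Nr4a2 had values at least 2-fold higher in the Rb family deficient pools, whereas Egr3, Nab1, Nab2 and Nr4a3 differed by at most 0.18 on the log2 scale in either direction. At least 2-fold higher values were seen for 4 of the 8 genes, beside 0.528% of all 18193 genes, and at least 2-fold lower values for 0 of 8, beside 0.275%. Both deficient pools lay above both wild type pools for 5 of 8 genes, beside 17.0% of all genes, and below them for 0 of 8, beside 18.5%. A difference above 0 was seen for 7 of 8 genes, beside 49.2% of all genes. The median difference of the 8 genes was 0.67, against -0.00376 over all genes. These shares describe genes that were partly picked for their difference, and nothing is read from them.

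By limma with Benjamini-Hochberg adjustment over all genes, 0 of the 8 genes passed an adjusted p threshold of 0.05, as did 0% of all genes. At an unadjusted p under 0.05, 3 of 8 genes were higher (Egr1, Egr2 and Nr4a2), beside 2.19% of all genes, and 0 were lower, beside 4.04%. Over all genes this was 399 higher and 735 lower, a split that turned to 601 higher and 530 lower with each array centred on its median over genes. With 2 pools against 2, a two-sided exact permutation test cannot go below p = 0.333. The limma test gains its precision from the variance it shares between genes.

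**Figure D1:**
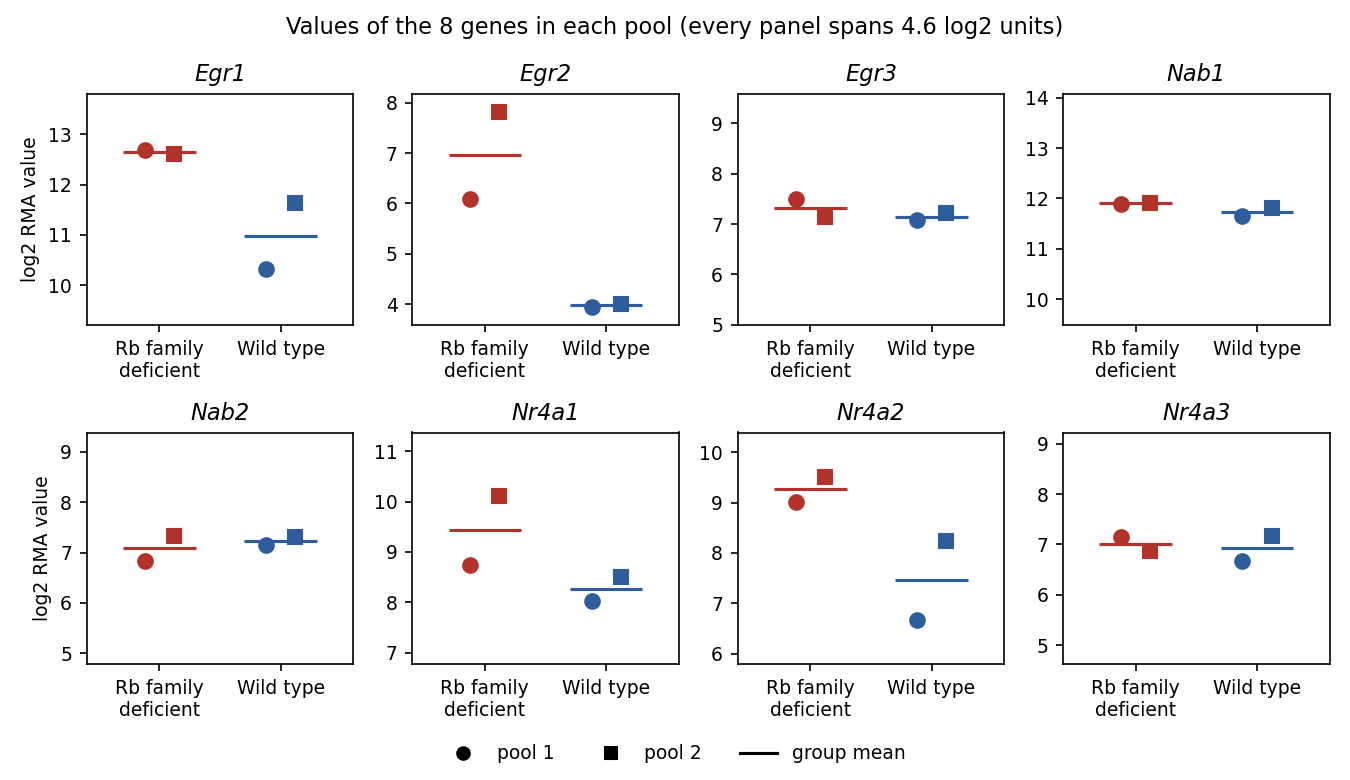
Log2 RMA values of the 8 genes (vertical axis) in Rb family deficient pools (red, left) and wild type pools (blue, right), with circles for pool 1, squares for pool 2 and a line at each group mean. Egr1, Egr2, Nr4a1 and Nr4a2 are higher in both deficient pools, and the pools of a group lie far apart in at least 1 group for each of these 4 genes.

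Egr2, the zinc finger factor known for its roles in myelinating Schwann cells and in lymphocytes, showed the widest gap between the groups among the 8. Its log2 values were 6.09 and 7.82 in deficient cells and 3.94 and 4.01 in wild type cells. The groups did not overlap, and the lower deficient pool stood 2.08 above the higher wild type pool. The mean difference was 2.98, or 7.88-fold (SE 0.55, 95% interval 1.58 to 4.37, n = 2 pools per group, limma adjusted p = 0.761). In the main probe set Egr2 was nearly level between the wild type pools, while deficient pool 2 was 1.73 above deficient pool 1. Both wild type values lay below their array medians of 5.93 and 5.96, the lowest values of these arrays being 2.65 and 2.73. The part of background signal in the 7.88-fold difference was not tested. Leaving out deficient pool 2 gave a difference of 2.11 and leaving out deficient pool 1 gave 3.84. The second Egr2 probe set showed the same order, with 6.32 and 7.06 in deficient cells against 3.31 and 4.34 in wild type cells and a difference of 2.87 (SE 0.42).

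The Egr2 promoter is shown because Egr2 differed most among the 8 genes. The window runs from 250 bases before to 50 bases after a RefSeq start site on the plus strand of GRCm38.p6 (chr10:67537619-67537918), and capitals mark the letters of a CArG box, the site of serum response factor, and of TGACG, the core of a cAMP response element (CRE), on either strand. RefSeq gives 5 Egr2 windows, 3 of which cover this CArG box.
Egr2: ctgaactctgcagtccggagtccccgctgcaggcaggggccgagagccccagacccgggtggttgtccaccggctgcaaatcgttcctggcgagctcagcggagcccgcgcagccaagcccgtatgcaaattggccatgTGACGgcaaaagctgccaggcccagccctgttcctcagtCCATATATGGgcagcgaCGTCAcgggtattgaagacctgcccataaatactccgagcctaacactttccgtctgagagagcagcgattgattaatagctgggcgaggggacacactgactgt
The CArG box begins at base 179 of the window and the second CRE core at base 196. A CArG box was found in 1.63% of all 32851 promoter windows, TGACG on either strand in 20.8%, and both in 1 window in 0.244%. These matches are letters in a window and were not measured as bound sites.

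Egr1, the founding member of the family, was high in both deficient pools, at 12.69 and 12.60, against 10.33 and 11.64 in wild type cells. The groups did not overlap, and the closest pair of pools was 0.96 apart. The deficient pools were within 0.08 of each other, while the wild type pools differed by 1.31, wild type pool 1 being the lower. On average Egr1 was 3.15-fold higher (log2 difference 1.66, SE 0.43, 95% interval 0.58 to 2.74, n = 2 pools per group, limma adjusted p = 0.761). Without wild type pool 1 the difference was 1.00, and without wild type pool 2 it was 2.31. Egr1 had 1 probe set.

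Egr3, which in mice is needed for muscle spindles and shares lymphocyte functions with Egr2, did not separate the groups. It stood at 7.50 and 7.15 in deficient cells, and at 7.08 and 7.22 in wild type cells. Deficient pool 2 lay below wild type pool 2, so the groups overlapped. The difference was 0.18 (SE 0.18, 95% interval -0.28 to 0.64), which does not show that the groups are alike. A dimmer Egr3 probe set had 4.77 and 6.44 in deficient cells and 3.70 and 6.20 in wild type cells. In it pool 2 was the higher one in both groups, by 1.67 in deficient and 2.49 in wild type cells, more than the difference of 0.66 between the groups. Egr4, the remaining EGR family gene, was at 5.88 and 5.56 in deficient cells and 5.21 and 5.53 in wild type cells, a difference of 0.35 (SE 0.20) that was 0.19 without deficient pool 1.

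The NAB co-repressors differed little in their main values. Nab2, the co-repressor known to be induced by EGR factors, had 6.83 and 7.33 in deficient cells against 7.15 and 7.30 in wild type cells. The wild type values lay between the deficient ones, and the difference was -0.14 (SE 0.21, 95% interval -0.68 to 0.40). Nab2 turned to 0.11 without deficient pool 1. Its single promoter window held no match to the searched EGR, NR4A, CRE or CArG letters.

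Nab1 gave opposite signs in different probe sets. The main one was at 11.89 and 11.91 in deficient cells against 11.66 and 11.81 in wild type cells, a difference of 0.17 (SE 0.15, 95% interval -0.20 to 0.54). The second had 6.22 and 6.60 in deficient cells against 6.74 and 6.85 in wild type cells, a difference of -0.39 (SE 0.18). The third had 4.66 and 4.68 against 5.39 and 5.35 in wild type cells, a difference of -0.70 (SE 0.14, limma adjusted p = 0.701 over all probe sets). The groups did not overlap in any of the 3, above in the first and below in the others. With the mean of the 3 probe sets Nab1 differed by -0.31. Which exons the probe sets match was not used here, so no direction is given for the gene.

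The Nab1 promoter (minus strand, chr1:52500399-52500698, GRCm38.p6) is shown because its RefSeq window has the most EGR letters among the 6 genes with a window here. Capitals mark GCGGGGGCG or GCGTGGGCG, the letters bound by EGR zinc fingers, and TGACG, all on either strand.
Nab1: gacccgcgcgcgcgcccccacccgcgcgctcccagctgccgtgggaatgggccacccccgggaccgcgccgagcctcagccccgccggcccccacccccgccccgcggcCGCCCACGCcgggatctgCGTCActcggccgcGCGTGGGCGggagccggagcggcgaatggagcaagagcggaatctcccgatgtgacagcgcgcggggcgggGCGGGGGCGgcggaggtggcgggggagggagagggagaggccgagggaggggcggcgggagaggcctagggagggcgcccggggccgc
The window holds 3 matches to the EGR letters. At least 1 match occurred in 3.47% of all promoter windows and at least 3 in 0.0365%, or 12 windows. Nab1 was among the 4 genes whose main value differed little.

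Among the NR4A receptors, Nr4a1 (Nur77), which marks antigen receptor signalling in lymphocytes and is needed for patrolling monocytes, was at 8.75 and 10.12 in deficient cells against 8.03 and 8.49 in wild type cells. The groups did not overlap, but the closest pair of pools was only 0.26 apart, and deficient pool 2 was well above the other 3 pools. The difference was 1.17, or 2.25-fold (SE 0.47, 95% interval -0.00647 to 2.35, n = 2 pools per group, limma adjusted p = 0.793). Deficient pool 2 carried most of it, as the difference was 0.49 without that pool and 1.86 without deficient pool 1. Nr4a1 had 1 probe set.

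Nr4a2 (Nurr1), best known for dopaminergic neurons, had 9.02 and 9.51 in deficient cells against 6.68 and 8.23 in wild type cells. The groups did not overlap, and wild type pool 1 was far below the other 3 pools. The difference was 1.81, or 3.50-fold (SE 0.52, 95% interval 0.49 to 3.13, n = 2 pools per group, limma adjusted p = 0.761). Without wild type pool 1 it was 1.03, and without wild type pool 2 it was 2.59. The main Nr4a2 probe set has an _s_at name, which is given to probes that can match more than 1 transcript.

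The other 5 Nr4a2 probe sets were all above 0, with differences from 0.16 to 1.32, and 3 of them had both deficient pools above both wild type pools. The brightest of the 5, which is without an _s_at or _x_at name, had 7.32 and 9.06 in deficient cells against 6.96 and 7.91 in wild type cells. There deficient pool 1 lay below wild type pool 2, the groups overlapped, and the difference was 0.75 (SE 0.64). The widest of the 5 had 6.31 and 7.33 in deficient cells against 5.12 and 5.88 in wild type cells, a difference of 1.32 (SE 0.42). The size for Nr4a2 thus depended on the probe set, while the sign did not.

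Nr4a3 (Nor1), the receptor described to act together with Nr4a1 in restraining myeloid growth in mice, did not separate the groups. It had 7.14 and 6.87 in deficient cells against 6.68 and 7.17 in wild type cells, and the deficient values lay between the wild type ones. The difference was 0.08 (SE 0.22, 95% interval -0.48 to 0.64). It turned to -0.05 without deficient pool 1 and to -0.16 without wild type pool 1. Both dimmer Nr4a3 probe sets overlapped as well, with differences of 0.12 (SE 0.18) and 0.27 (SE 0.21).

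The promoters of the 3 NR4A genes are set side by side because the genes share CRE cores while 2 of them, Nr4a1 and Nr4a2, were at least 2-fold higher in deficient cells and Nr4a3 was not. The windows are on GRCm38.p6, Nr4a1 at chr15:101266596-101266895 (plus strand), Nr4a2 at chr2:57123954-57124253 (minus strand) and Nr4a3 at chr4:48045055-48045354 (plus strand). Capitals mark TGACG on either strand and, in Nr4a1, also the EGR letters.
Nr4a1: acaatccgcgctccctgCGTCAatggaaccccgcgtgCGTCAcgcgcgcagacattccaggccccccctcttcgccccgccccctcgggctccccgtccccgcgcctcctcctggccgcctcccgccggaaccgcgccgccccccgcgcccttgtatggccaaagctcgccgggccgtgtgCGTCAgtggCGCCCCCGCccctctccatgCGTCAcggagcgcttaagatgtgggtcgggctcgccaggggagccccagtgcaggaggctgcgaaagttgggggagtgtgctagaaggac
Nr4a2: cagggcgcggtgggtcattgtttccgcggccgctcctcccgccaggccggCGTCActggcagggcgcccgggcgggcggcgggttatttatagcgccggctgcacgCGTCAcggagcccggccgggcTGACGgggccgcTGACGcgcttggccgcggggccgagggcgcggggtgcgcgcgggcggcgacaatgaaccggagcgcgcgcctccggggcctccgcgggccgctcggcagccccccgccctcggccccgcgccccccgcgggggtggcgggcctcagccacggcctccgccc
Nr4a3: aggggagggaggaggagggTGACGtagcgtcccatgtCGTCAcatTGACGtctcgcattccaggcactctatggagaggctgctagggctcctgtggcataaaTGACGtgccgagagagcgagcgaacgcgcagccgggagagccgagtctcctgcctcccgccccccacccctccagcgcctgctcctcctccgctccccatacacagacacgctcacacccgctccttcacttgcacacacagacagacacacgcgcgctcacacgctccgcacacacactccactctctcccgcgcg
Each of the 3 windows holds 4 CRE cores, a number reached by 0.231% of all promoter windows, or 76. None of the 3 holds the full element TGACGTCA, the NR4A letters AAAGGTCA or a CArG box, which occurred in 1.79%, 1.51% and 1.63% of all windows. The shared letters stood beside differences of 1.17, 1.81 and 0.08, and the matches draw nothing about the factors. Windows of 6 of the 8 genes were used. For the 8 genes windows of a single chromosome were left out, while the shares over all windows include them. None was used for Egr1 or Egr3, and this filter is not given as the reason. The lack of a window for these 2 genes is no result.

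**Figure D2:**
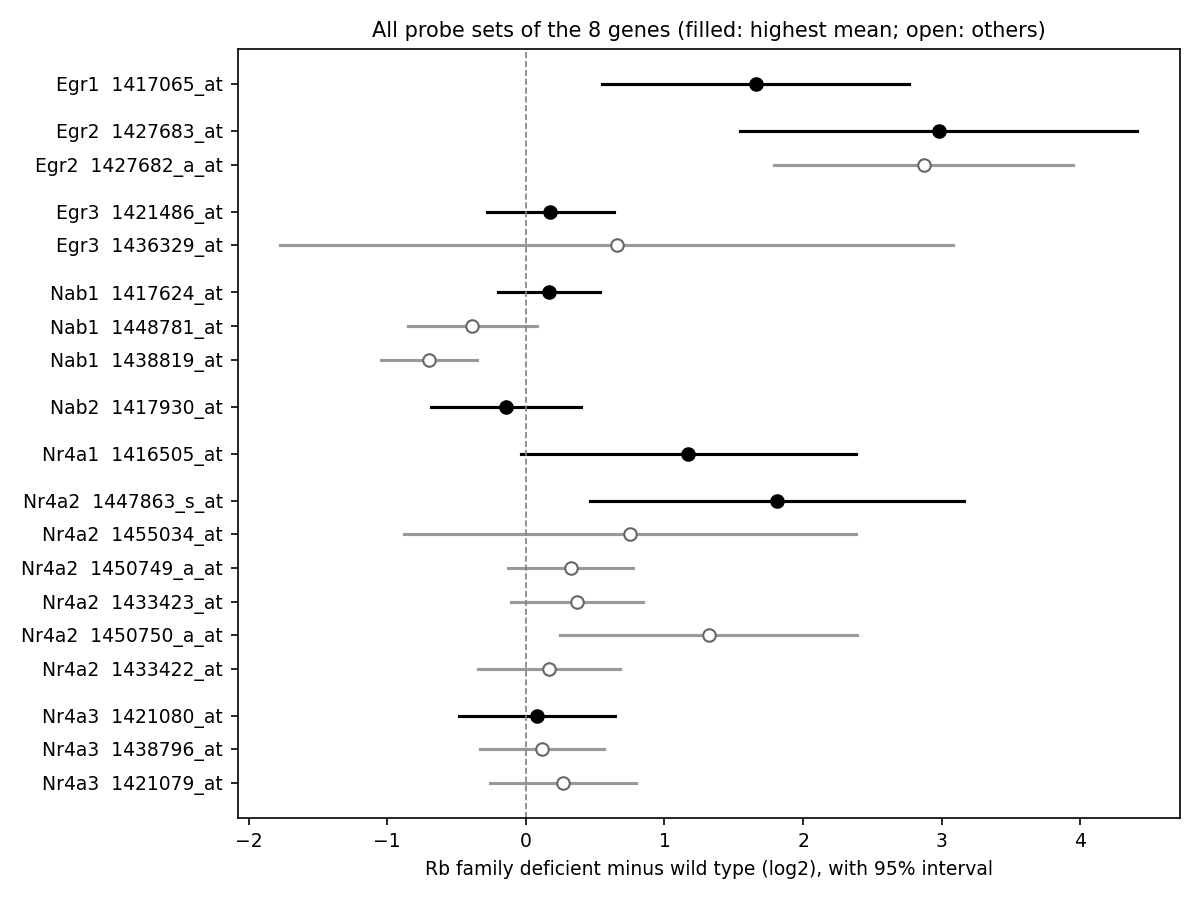
Rb family deficient minus wild type difference (log2, horizontal axis) of each of the 19 probe sets, with 95% intervals of the limma fit over all probe sets; filled points are the main probe sets. Both Egr2 probe sets lie near 3, the 6 Nr4a2 probe sets spread between 0.16 and 1.81, and the 3 Nab1 probe sets lie on both sides of 0.

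The 4 genes with large differences also differed between pools of the same group. Pool 2 minus pool 1 was -0.08 for Egr1, 1.73 for Egr2, 1.37 for Nr4a1 and 0.49 for Nr4a2 in deficient cells. In the wild type pools it was 1.31 for Egr1, 0.07 for Egr2, 0.47 for Nr4a1 and 1.55 for Nr4a2. Over all genes the median size of this gap was 0.18 in deficient and 0.20 in wild type cells. The deficient gap of Egr2 exceeded that of 99.7% of genes and that of Nr4a1 99.5%, while in wild type cells Egr1 exceeded 99.2% and Nr4a2 99.6%. In their main probe sets Egr1 and Nr4a2 were thus uneven between wild type pools, and Egr2 and Nr4a1 between deficient pools. Other probe sets differed in this. The second Egr2 probe set had gaps of 0.74 in deficient and 1.04 in wild type cells. The brightest of the other Nr4a2 probe sets had 1.75 and 0.95. For the other 4 genes the gaps of the main probe sets ran from -0.35 to 0.50 in deficient cells and from 0.13 to 0.49 in wild type cells. Pool 2 was the higher for 5 of the 8 genes in deficient cells and for 8 of 8 in wild type cells, beside 9044 and 9907 of all 18193 genes.

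**Figure D3:**
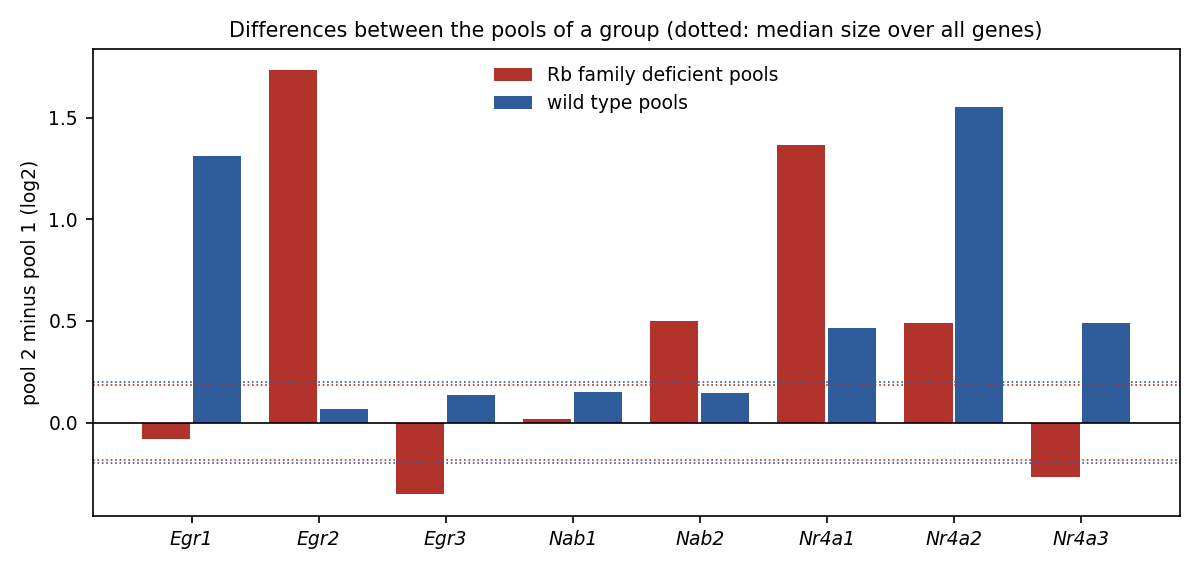
Pool 2 minus pool 1 (log2, vertical axis) for the main probe set of each gene in the Rb family deficient pools (red) and the wild type pools (blue). Dotted lines mark the median size over all genes, 0.18 and 0.20. The widest gaps are those of Egr2 (1.73) and Nr4a1 (1.37) in deficient pools and of Nr4a2 (1.55) and Egr1 (1.31) in wild type pools.

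Genes listed as other immediate early genes, among them AP-1 factors, phosphatases, mRNA decay factors and regulators, were mostly above 0. Of 39 genes on this list, 33 were above 0, with a median difference of 0.49. By limma 0 passed the adjusted threshold, and an unadjusted p under 0.05 was reached by 14 genes with higher values, beside 2.19% of all genes, and by 0 with lower values. At least 2-fold higher values were seen for 10 of 39, beside 0.528%, and both deficient pools lay above both wild type pools for 21, beside 17.0%. This list and those below were chosen with earlier results of these data known, so nothing is read from such counts. The 4 genes with the smallest p were Socs3, a feedback inhibitor of cytokine receptors (2.39, SE 0.16), Ptgs2, the inducible cyclooxygenase (2.15, SE 0.20), Klf2, a zinc finger factor of quiescent lymphocytes (1.18, SE 0.16), and the AP-1 subunit gene Jund (1.05, SE 0.21). Socs3 had 10.91 and 11.14 in deficient cells against 8.56 and 8.71 in wild type cells, and its limma adjusted p of 0.326 was the smallest of all genes. Its main probe set has an _x_at name, which marks probes that can match other transcripts, and with specific probe sets first Socs3 differed by 0.83. Averaged over their probe sets, Ptgs2 stood at 1.34 and Jund at 0.63.

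Genes upstream of the EGR and NR4A genes lay around 0. Of 26 kinases and factors, 20 were measured with 1 gene symbol, 7 of them above 0, with a median difference of -0.04. Map2k1, the gene of the MAP kinase kinase MEK1, stood lower in deficient cells (8.74 and 9.05, against 9.59 and 9.43 in wild type cells), and differed by -0.62 with an SE of 0.18 and an adjusted p from limma of 0.761. It was the only one of the 20 at an unadjusted p under 0.05, a share near the 4.04% of all genes that were lower, so the count is no result about the list. The next 3 by p were Mef2c (-0.20, SE 0.14), Mrtfa (-0.33, SE 0.30), which encodes a co-activator of serum response factor, and the kinase gene Rps6ka3 (0.21, SE 0.23). mRNA levels of kinases do not report their activity, which was not measured.

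Relatives and binding partners also stayed close to 0, with 5 of 7 above it and a median of 0.18. The retinoid X receptor gene Rxra, whose product pairs with NR4A1 and NR4A2, had 7.33 and 7.19 in deficient cells and 6.78 and 6.89 in wild type cells (0.42, SE 0.15, limma adjusted p = 0.782). With the mean of its probe sets Rxra differed by 0.21. Rxrg differed by 0.25 (SE 0.16) and the chromatin remodeller gene Chd3 by -0.29 (SE 0.25). Rxra was the only 1 of the 7 at an unadjusted p under 0.05 by limma, beside 2.19% of all genes that were higher. Both deficient pools lay above both wild type pools for 3 of 7, beside 17.0% of all genes. Nothing is read from these counts.

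Described targets of EGR and NR4A factors lay on both sides of 0, with 13 of 21 above 0 and a median of 0.03. By limma 0 passed the adjusted threshold, and an unadjusted p under 0.05 was reached by 3 genes with higher values, beside 2.19% of all genes, and by 0 with lower values. The 3 were Id2, an inhibitor of helix-loop-helix factors that was 3.93-fold higher (1.98, SE 0.31), the cell cycle inhibitor gene Cdkn1a (1.17, SE 0.25) and Id3 (1.04, SE 0.32). Id2 had 8.98 and 8.12 in deficient cells against 6.46 and 6.68 in wild type cells, Id3 had 6.26 and 6.13 against 4.70 and 5.61, and Cdkn1a had 9.27 and 9.96 against 8.48 and 8.40. All 3 main values were at least 2-fold higher with no overlap between the groups. Nothing is read from these counts, as the list was chosen with earlier results of these data known. Id2 was below 2-fold with the mean of its probe sets (0.88), and so was Id3 without wild type pool 1 (0.58). The fourth by p was Pdgfa, a classical EGR1 target, at 0.31 (SE 0.14), or 0.09 with the mean of its probe sets.

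**Figure D4:**
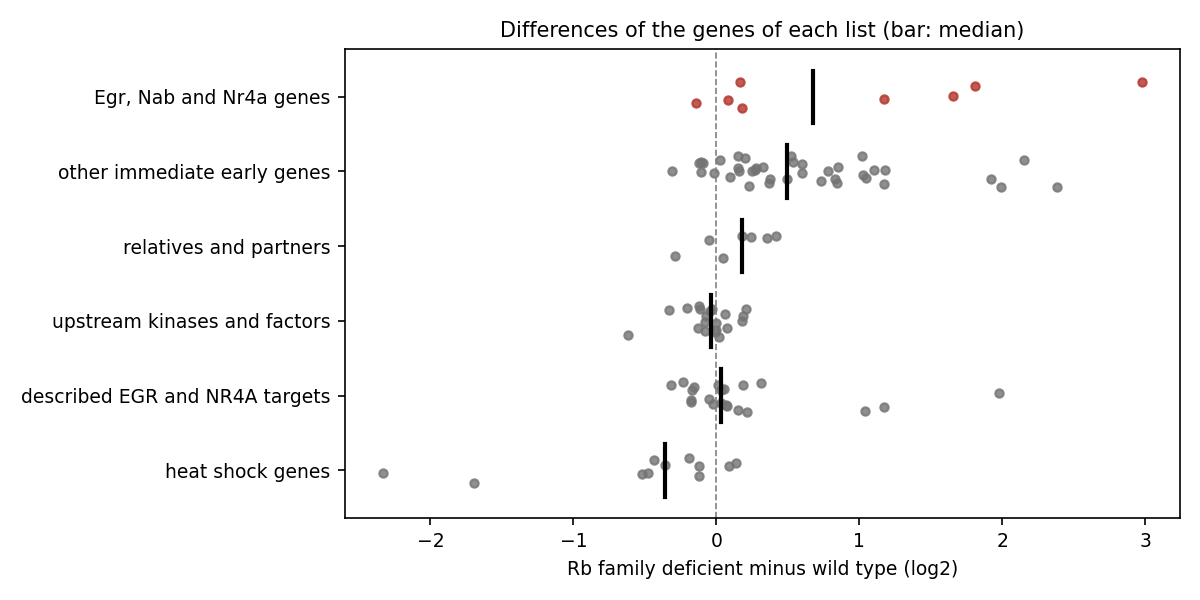
Rb family deficient minus wild type difference (log2, horizontal axis) of every measured gene of each list, 1 point per gene, with a bar at the list's median. The medians are 0.67 for the 8 genes, 0.49 for other immediate early genes, 0.18 for relatives and partners, -0.04 for upstream genes, 0.03 for described targets and -0.36 for heat shock genes.

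Heat shock genes, which answer stress and the handling of cells, lay below 0 for 9 of 11 measured members, with a median of -0.36 (-0.13 without deficient pool 2), and 3 reached an unadjusted p under 0.05 with lower values, beside 4.04% of all genes, but 0 the adjusted threshold of limma. The inducible Hsp70 gene Hspa1a had 6.75 and 9.60 in deficient cells against 10.87 and 10.14 in wild type cells, and its near copy Hspa1b had 9.50 and 11.37 against 12.51 and 11.76. Without deficient pool 1 Hspa1a differed by -0.91 and Hspa1b by -0.76. Hspd1 differed by -0.48 (SE 0.18) and Hspe1 by -0.36 (SE 0.17). Deficient pool 1, the lowest in both Hsp70 genes, had lower Egr2, Nr4a1 and Nr4a2 than deficient pool 2, and slightly higher Egr1 (12.69 against 12.60). The part of sample handling in the EGR and NR4A values was not tested.

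The KLS CD48- CD150+ gate does not aim at neutrophils, but marker genes of mature neutrophils differed between the groups and between pools of a group. All 9 measured markers were above 0, with a median difference of 0.98, and 3 reached an unadjusted p under 0.05, beside 2.19% of all genes, but 0 the adjusted threshold of limma. The median was 0.64 without deficient pool 1, 0.38 without wild type pool 1 and 1.61 without wild type pool 2. Their summed level on the linear scale was 67348 and 42536 in deficient cells and 19741 and 42935 in wild type cells, so the groups overlapped. Pool 2 was the higher for 0 of 9 markers in deficient cells and for 9 of 9 in wild type cells. Over all 18193 genes this held for 9044 and 9907. Mmp8 differed by 2.24 (SE 0.60) and Mmp9 by 1.56 (SE 0.52), or by 1.31 and 0.76 without deficient pool 1. In these bulk samples, more cells of a type and more RNA per cell cannot be told apart. Wild type pool 1 had the lowest sum and also the lowest Egr1, Nr4a1, Nr4a2 and, by only 0.07, Egr2, while deficient pool 1 had the highest sum and, of the 4 genes, the highest value for Egr1 only. The part of neutrophil RNA in the results was not tested.

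Deficient pool 2 and wild type pool 2 had nearly the same summed neutrophil level, a pair picked after the sums were seen. The sum is carried by the brightest markers. In this pair 6 of 9 markers were higher in deficient pool 2, beside 8314 of all 18193 genes, and nothing is read from this count. Mmp8 (7.49 against 6.37) and Mmp9 (8.11 against 7.50) were among the 6. Between these pools Egr2 differed by 3.81, Nr4a1 by 1.62, Nr4a2 by 1.28 and Egr1 by 0.96, deficient pool 2 being the higher each time. Egr3, Nab1, Nab2 and Nr4a3 differed by -0.07, 0.10, 0.03 and -0.30. The median over the 9 neutrophil markers was 0.14 for this pair, and that of the 39 other immediate early genes was 0.57. It is 1 pool against 1, so there is no replicate check, and the part of neutrophil RNA was not tested by it. Macrophage and monocyte markers, summed over 8 genes, were at 413 and 426 in deficient cells, and at 385 and 414 in wild type cells.

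**Figure D5:**
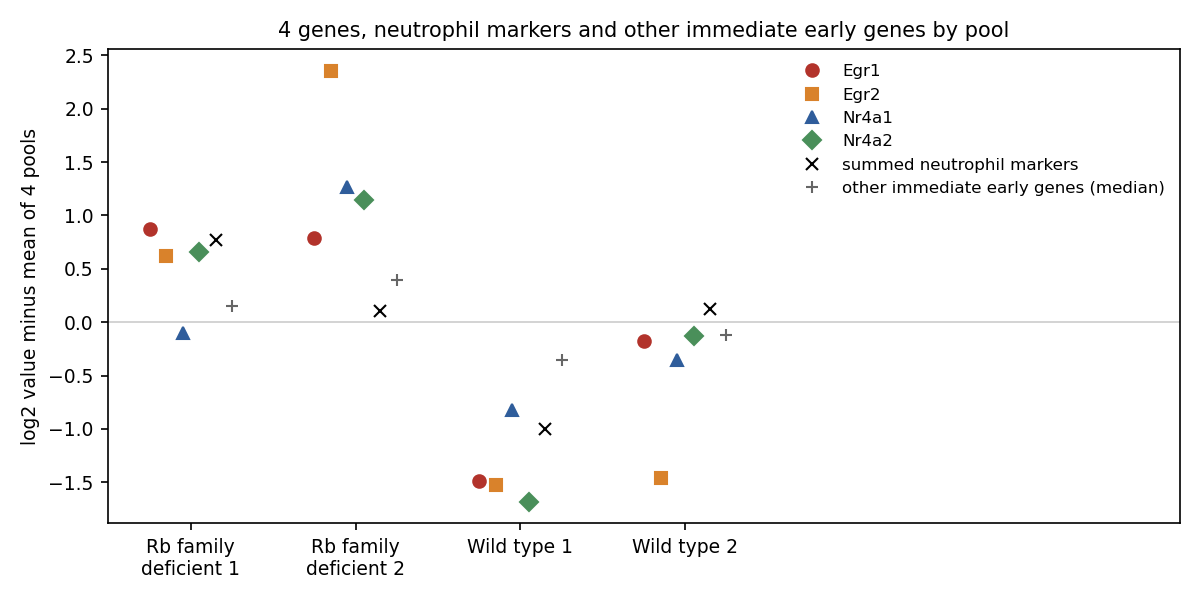
Log2 values of Egr1, Egr2, Nr4a1 and Nr4a2 and log2 of the summed neutrophil markers in each pool, minus their mean over the 4 pools, and the median of the other immediate early genes centred in the same way per gene (vertical axis). Wild type pool 1 is lowest for all 4 genes and the neutrophil sum. The sum is nearly equal in the pools numbered 2, a pair picked after the sums were seen. In that pair 6 of 9 neutrophil markers were higher in deficient pool 2, beside 8314 of all 18193 genes, and Egr2 was 3.81 apart.

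Genes with the most similar pattern were sought for the 3 genes with the widest range over the pools, Egr2, Nr4a2 and Egr1. The measure was the smallest root mean square distance between log2 values centred on each gene's mean over the 4 arrays. Predicted genes, RIKEN clones and unnamed expressed sequences, among others, were passed over by name, so the closest genes are those among the rest. The closest to Egr2 were Socs3 (distance 0.61), the chemokine gene Cxcl2 (0.64), the zinc finger factor gene Klf4 (0.65) and the AP-1 gene Fosb (0.69). Closest to Nr4a2 were Egr1 (0.23), Klf4 (0.31), Iglv1 (0.32) and the myeloid receptor gene Trem3 (0.33). Iglv1 rests on an _x_at probe set, and its group difference was 0.10 with specific probe sets first, against 1.27 here. Closest to Egr1 were the haptoglobin gene Hp (0.19), Nr4a2 (0.23), Trem3 (0.24) and Cybb (0.25), which encodes a subunit of the phagocyte oxidase. Trem3, Hp and Cybb are known from myeloid cells. Hp had 10.80 and 10.28 in deficient cells against 8.02 and 9.63 in wild type cells, with the same low wild type pool 1 as Egr1. Without that pool the differences were 0.91 for Hp, 0.44 for Trem3 and 0.92 for Cybb. With 4 arrays these distances describe the pools at hand and test nothing.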

How the data were processed

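RNA levels were read on 4 Affymetrix mouse arrays, 1 per pool. The deposited values are log2 values made by the authors with RMA, per the submitters' processing notes, which also name limma; no versions are given there. That the scale is log2 was taken from the range of values. Of 45101 probe sets, 64 controls were left out, 34945 had 1 gene symbol, 932 several and 9160 none listed in the platform annotation of 2016; symbols were updated by Entrez ID (RefSeq, GRCm38.p6, 34741 matched). Per gene the probe set with the highest mean was kept. Differences were fitted with limma 3.58.1 in R 4.3.3 (lmFit, eBayes, no block, Benjamini-Hochberg) and the script was tested on simulated data. Gene SEs and intervals come from the gene fit, those of other probe sets from a fit of 45037 probe sets. Members, lists and tests were chosen with earlier results of these data known. Named genes are all 8 members, up to 4 genes per list by p, the genes nearest in pattern, the targeted genes and up to 2 markers per marker list given; others are said to be chosen after their values were seen. The number of arrays limits the precision. RMA compresses folds of dim probe sets. Alternatives were other centring, normalization, probe set choice, a filter on dim genes, variance priors, a replicate block and leaving out each pool.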

Additional observations from a re-analysis of the deposited data

How the results depend on the processing

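No member passed the adjusted threshold under any alternative run, and Egr1, Egr2, Egr3, Nr4a1 and Nr4a2 stayed above 0 in each run that held them. Variance priors, the block and the filter on dim genes cannot change a difference. Leaving out a pool cannot turn the sign of Egr1, Egr2, Nr4a1 or Nr4a2, whose groups did not overlap. Nab1 turned to -0.31 with the mean of its probe sets, which made 1 member lie below in both deficient pools. With a pool left out that count was 0 to 1, the differences ran from -0.39 to 0.11 for Nab2, -0.16 to 0.33 for Nr4a3 and 8.17e-05 to 0.35 for Egr3, and likewise from -0.59 to 0.00933 for Chd3, -0.71 to 0.0539 for Mrtfa, -0.077 to 0.49 for Rps6ka3, -0.94 to 4.12 for Ctsg and -0.41 to 3.17 for Ms4a3. Nr4a2 was 0.75 with specific probe sets first and 0.79 with their mean. Members at an unadjusted p under 0.05 numbered 2 to 4. Over all genes, 399 higher and 735 lower became 281 and 457 with the replicate block, 176 and 408 without dim genes (below the median mean, which leaves out Egr2 and Nr4a3 and tests fewer genes), 244 and 317 without deficient pool 1 and 689 and 1082 without wild type pool 2; the cause was not tested. The pool numbers share only a number. Pool differences correlated at -0.19 between the groups over genes, and a crossed pairing, added after the data were seen, gave 518 and 1151. The block left each member's difference as it was and changed no adjusted call. A pool alone in its group was assumed to vary like the other group.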

Other observations

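A list of HSC genes, from the sort gate and outside it, was below 0 for 6 of 8 measured genes (median -0.22). Both deficient pools lay below both wild type pools for 4 of them, beside 18.5% of all genes. Procr, the endothelial protein C receptor gene, was at -0.85 (SE 0.17). Mecom was at -0.69 (SE 0.16), or -0.32 with the mean of its probe sets. Neither belongs to the gate. The measured gate genes of the list, added after their values were seen, did not move together. Kit was at -0.59 (SE 0.28), Slamf1 (CD150) at 0.24 (SE 0.40) and Cd48, which the gate excludes, at -0.03 (SE 0.42). Granulocyte and monocyte progenitor markers were above 0 for 7 of 7 (median 0.61), but the median turned to -0.68 without wild type pool 1 and lay between 0.17 (deficient pool 2 left out) and 1.26 (wild type pool 2 left out) otherwise. In this list pool 2 exceeded pool 1 by a median of 2.08 in the deficient and 1.89 in the wild type pools, and Ctsg (1.59, SE 1.72) and Ms4a3 (1.38, SE 1.28) overlapped. Macrophage and monocyte markers were above 0 for 6 of 8 (median 0.06), with C1qb at 0.24 (SE 0.20) and Fcgr1 at 0.19 (SE 0.16). Medians were 0.23 for erythroid, -0.14 for megakaryocyte, 0.26 for B cell, 0.04 for T and NK cell, 0.01 for mast cell and basophil and 0.15 for endothelial and stromal markers. In none of these lists did a member pass the limma adjusted threshold. At an unadjusted p under 0.05 there were 2 genes over all these lists, Procr and Mecom, both lower, beside 4.04% of all genes. Nothing is read from this count.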
